A study of Mus musculus with 6 samples.

Results

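The genes described here encode proteins of the presynaptic terminal, from the synaptic vesicle and its docking and fusion machinery to the active zone, the recovery of vesicle membrane and the loading of glutamate. They are 39 named genes, sorted by role into 5 subgroups: vesicle proteins (10 genes), SNARE proteins with their partners and the synaptotagmins (14), active zone proteins and neurexins (8), endocytosis (5) and vesicular glutamate transport (2). For each gene the array row with that single gene symbol was taken, and where a gene had several rows the one with the highest mean over the 6 arrays. All 39 were measured, out of 22180 genes with a row of their own, and all 39 had a mean above 7.32, the 95th percentile of the means of 1429 olfactory, vomeronasal and taste receptor genes, which served as a guide to background.

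RNA came from cortex of 6 mouse embryos at embryonic day 18, 3 GSK-3:Nex mutants (also written *Gsk3:Neurod6*; replicates 5, 6 and 7) and 3 controls (replicates 2, 3 and 4), each hybridized singly to an Affymetrix Mouse Gene 2.0 ST array. The mutants lacked *Gsk3a* in all cells, carried *Gsk3b* alleles with loxP sites around exon 2, and had Cre recombinase under control of *Neurod6* (Nex). The controls shared the *Gsk3a* null alleles and the floxed *Gsk3b* alleles but had no Cre, so neither group was wild type, and the presence of the Cre allele and the loss of GSK-3 cannot be told apart. The *Neurod6* driver acts in intermediate progenitors and young excitatory neurons of the dorsal telencephalon, so the dissected tissue also held interneurons, glia and vessel cells in which *Gsk3b* was not removed. The mice were of mixed genetic background. By the methods the embryos came from 2 independent litters, and which litter an embryo came from is not known here. The labels name the presumptive somatosensory cortex and the methods the dorsal cortex.

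At a synapse, vesicles are held in a reserve by synapsins, docked and primed at the active zone by large scaffold proteins such as Piccolo and Bassoon, and fused by the SNARE proteins when a synaptotagmin binds calcium. The membrane is then taken back by endocytosis with dynamin, amphiphysin and synaptojanin, and the vesicle is refilled by a transporter. In the late embryonic cortex most of these genes are already transcribed while synapses are still few. The transcripts of many of them, though not of all, increase as neurons mature.

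Values are log2 intensities, and a difference is the mutant mean minus the control mean on that scale. Levels cannot be ranked between genes, since each gene is read by its own probes. In bulk tissue, fewer cells of a type and less RNA per cell cannot be told apart.

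RefSeq promoter windows (GRCm38.p6, 250 bases before to 50 bases after an annotated start) were at hand for 31 of the 39 genes, in 42 windows. Short elements known from promoters were searched on both strands in these and in all 32851 windows. The RE1 element, which binds the neuronal gene repressor REST, was written as TTCAGCACC, any 2 bases, GGACAG, any 1 base and GCC, with up to 2 mismatches. It occurred in 15 of all windows (0.0457%) and, among the presynaptic genes, in that of *Syn1*, with 1 mismatch. The cAMP response element TGACGTCA lay in 1 of the 42 windows, again that of *Syn1*, and in 1.79% of all windows. The GC box GGGCGG was present in 25 of the 42 windows (59.5%) and in 35.7% of all, and the TATA box TATAAA in 3 (7.14%) and 13.6%. The E-box CAGATG, of the kind bound by neuronal bHLH factors, was in 5 windows (11.9%) and in 17.2% of all, and the E-box CAGCTG in 9 (21.4%) and 16.3%. The window of *Syn1* is shown because it holds both rare elements. Those of *Sv2b*, *Cplx1* and *Pclo* are shown as examples of genes under an unadjusted p of 0.05, as described below. *Nrxn3*, also under that threshold and with a window, is not shown. Capitals mark matches on either strand, and none overlaps another. In *Syn1* (chrX:20920869-20921168, minus strand) they are the RE1 match, at -232 to -212 from the start, and the cAMP response element, at -159 to -152. In *Sv2b* (chr7:75309213-75309512, minus strand, 1 of its 4 windows) they are a TATA box read on the opposite strand and a GC box. In *Cplx1* (chr5:108549978-108550277, minus strand) they are an E-box and 2 GC boxes, 1 on each strand, and in *Pclo* (chr5:14514668-14514967, plus strand) an E-box and 4 GC boxes. A match is a description of the letters only.
Syn1: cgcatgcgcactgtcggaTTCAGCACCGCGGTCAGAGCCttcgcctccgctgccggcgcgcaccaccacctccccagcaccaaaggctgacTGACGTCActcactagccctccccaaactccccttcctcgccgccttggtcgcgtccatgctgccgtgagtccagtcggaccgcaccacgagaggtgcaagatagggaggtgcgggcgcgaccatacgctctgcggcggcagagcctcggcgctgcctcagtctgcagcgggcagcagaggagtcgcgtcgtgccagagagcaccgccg
Sv2b: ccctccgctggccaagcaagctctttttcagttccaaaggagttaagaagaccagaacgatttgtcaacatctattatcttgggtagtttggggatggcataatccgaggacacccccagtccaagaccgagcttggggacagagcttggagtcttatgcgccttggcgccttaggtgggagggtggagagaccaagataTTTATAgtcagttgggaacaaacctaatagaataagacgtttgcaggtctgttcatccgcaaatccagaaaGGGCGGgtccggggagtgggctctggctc
Cplx1: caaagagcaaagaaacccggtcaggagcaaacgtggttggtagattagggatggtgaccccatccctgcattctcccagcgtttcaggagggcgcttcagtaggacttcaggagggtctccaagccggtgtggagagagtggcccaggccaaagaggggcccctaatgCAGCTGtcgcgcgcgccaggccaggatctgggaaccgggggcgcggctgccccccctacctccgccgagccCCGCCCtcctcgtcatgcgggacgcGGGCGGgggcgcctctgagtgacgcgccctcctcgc
Pclo: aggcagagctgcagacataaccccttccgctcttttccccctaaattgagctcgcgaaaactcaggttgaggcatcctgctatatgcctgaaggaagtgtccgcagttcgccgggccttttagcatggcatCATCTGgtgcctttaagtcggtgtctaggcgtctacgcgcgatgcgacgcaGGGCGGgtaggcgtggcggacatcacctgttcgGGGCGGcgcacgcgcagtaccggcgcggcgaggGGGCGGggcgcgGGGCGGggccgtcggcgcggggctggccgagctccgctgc

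Differences between mutant and control cortex were small for the presynaptic genes, and most means were higher in mutants. No gene of the 39 passed an adjusted p of 0.05 in limma, against 1 of all 22180 genes tested (0.00451%), and the smallest adjusted p among the 39 was 0.399. At an unadjusted p under 0.05 there were 5 genes with a higher mean in mutants (12.8% of the 39, against 3.51% of all genes) and 0 with a lower mean (against 3.81% of all genes). In 9 genes every mutant array lay above every control array (23.1%, against 6.34% of all genes), in 2 every mutant array lay below every control array (5.13%, against 6.93% of all genes), and in the other 28 the groups overlapped. The mean was higher in mutants for 32 genes and lower for 7, so that 82.1% were higher, against 49.7% of all genes. The median difference was 0.07, against -0.00 over all genes, and 0 genes reached the 1.5-fold criterion of the methods (0.117% of all genes did). The genes were not chosen independently of earlier results from these arrays, so the shares describe the list and do not test it.

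**Figure D1:**
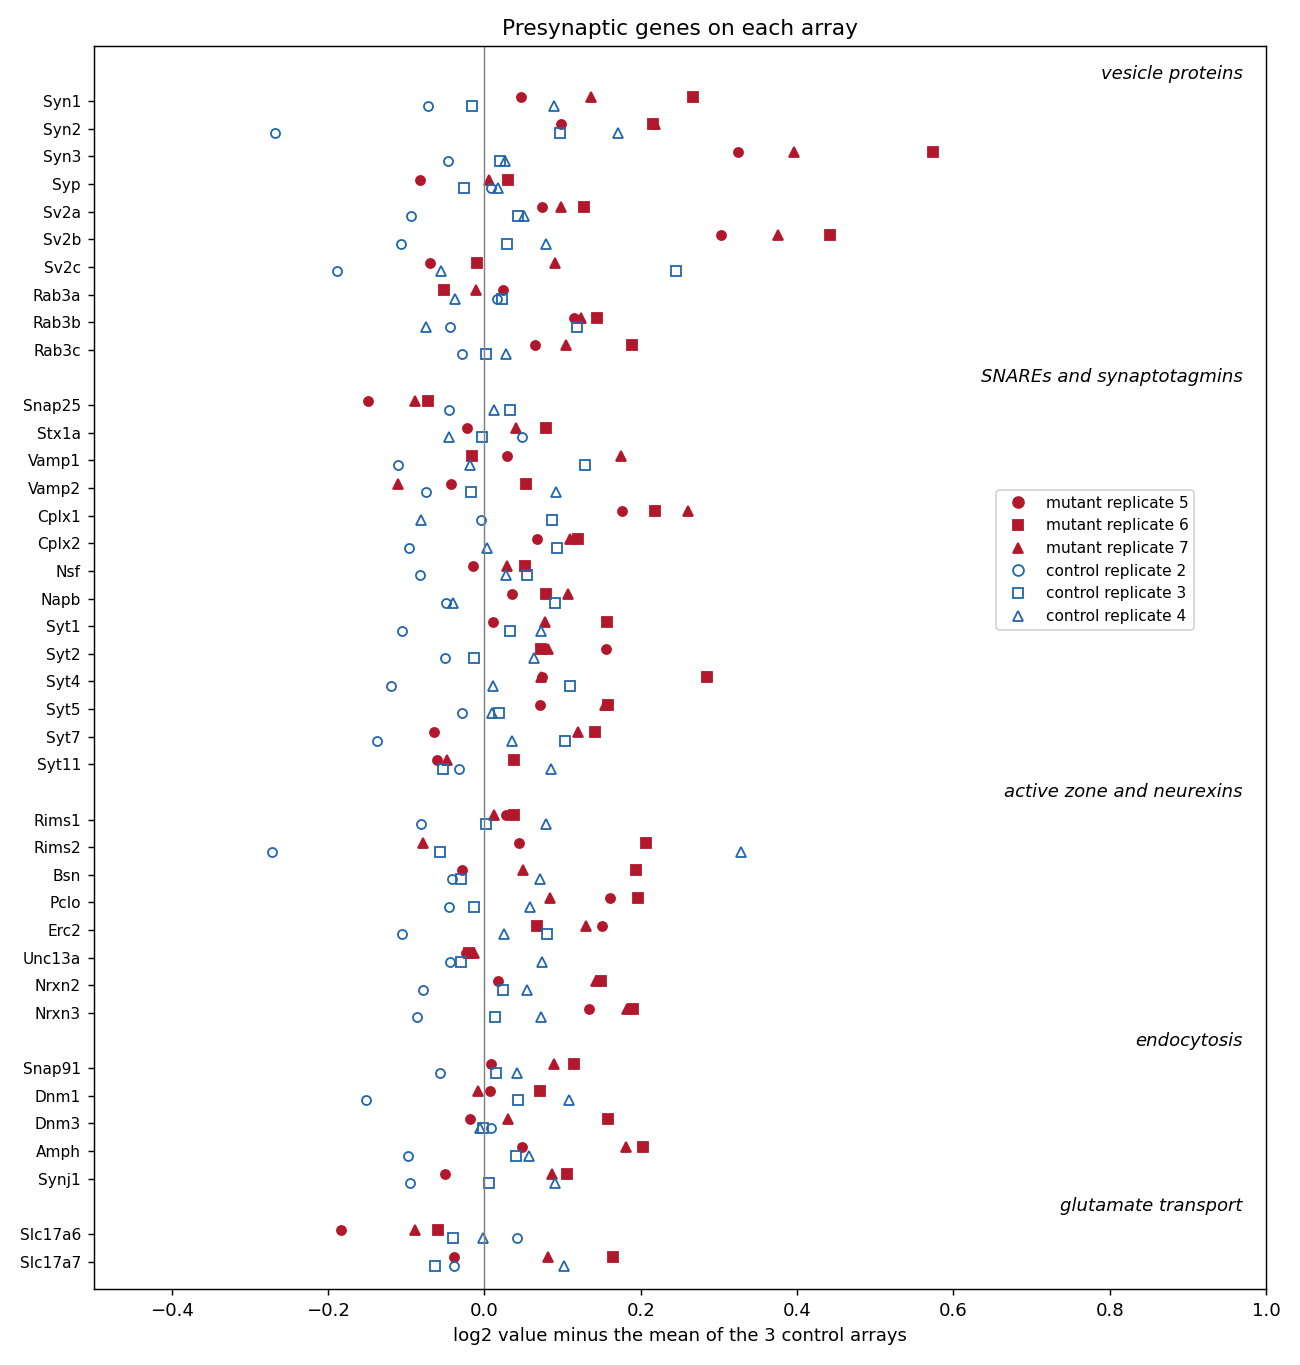
Log2 value of each of the 39 presynaptic genes on each array minus the mean of the 3 control arrays (horizontal axis), with genes down the page by subgroup. Filled red symbols are mutant and open blue symbols control embryos. Control replicate 2 holds the lowest value in 28 genes and mutant replicate 6 the highest in 22.

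A pair of arrays lay at the ends of the range for most of these genes. Averaged over the 39 genes, the deviation from each gene's mean of 6 arrays was -0.01, 0.09 and 0.04 on mutant replicates 5, 6 and 7, against -0.12, -0.01 and 0.00 on control replicates 2, 3 and 4. Mutant replicate 5 thus lay below control replicate 4, and the groups overlapped. Mutant replicate 6 had the highest value in 22 of the 39 genes (56.4%, against 23.4% of all genes), and control replicate 2 had the lowest in 28 (71.8%, against 18.5% of all genes). Among genes above background, where all 39 lie, these shares were 31.1% and 22.1%. Without control replicate 2, 25 of the 39 means were higher in mutants (64.1%, against 48.5% of all genes), and 3 genes stayed under an unadjusted p of 0.05 (3.30% of all genes had a higher mean at that threshold), namely *Syn3*, *Sv2b* and *Cplx1*. The same 3 remained without mutant replicate 6, when 31 means were higher (79.5%, against 48.5% of all genes, with 3.34% at that threshold). With both arrays left out, an alternative added after the values were seen, 24 means were higher (61.5%, against 46.9% of all genes), the median difference was 0.02, and *Syn3* and *Sv2b* were the 2 genes with a higher mean under an unadjusted p of 0.05 (4.14% of all genes). The median moved upward, to 0.11, without control replicate 3.

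**Figure D2:**
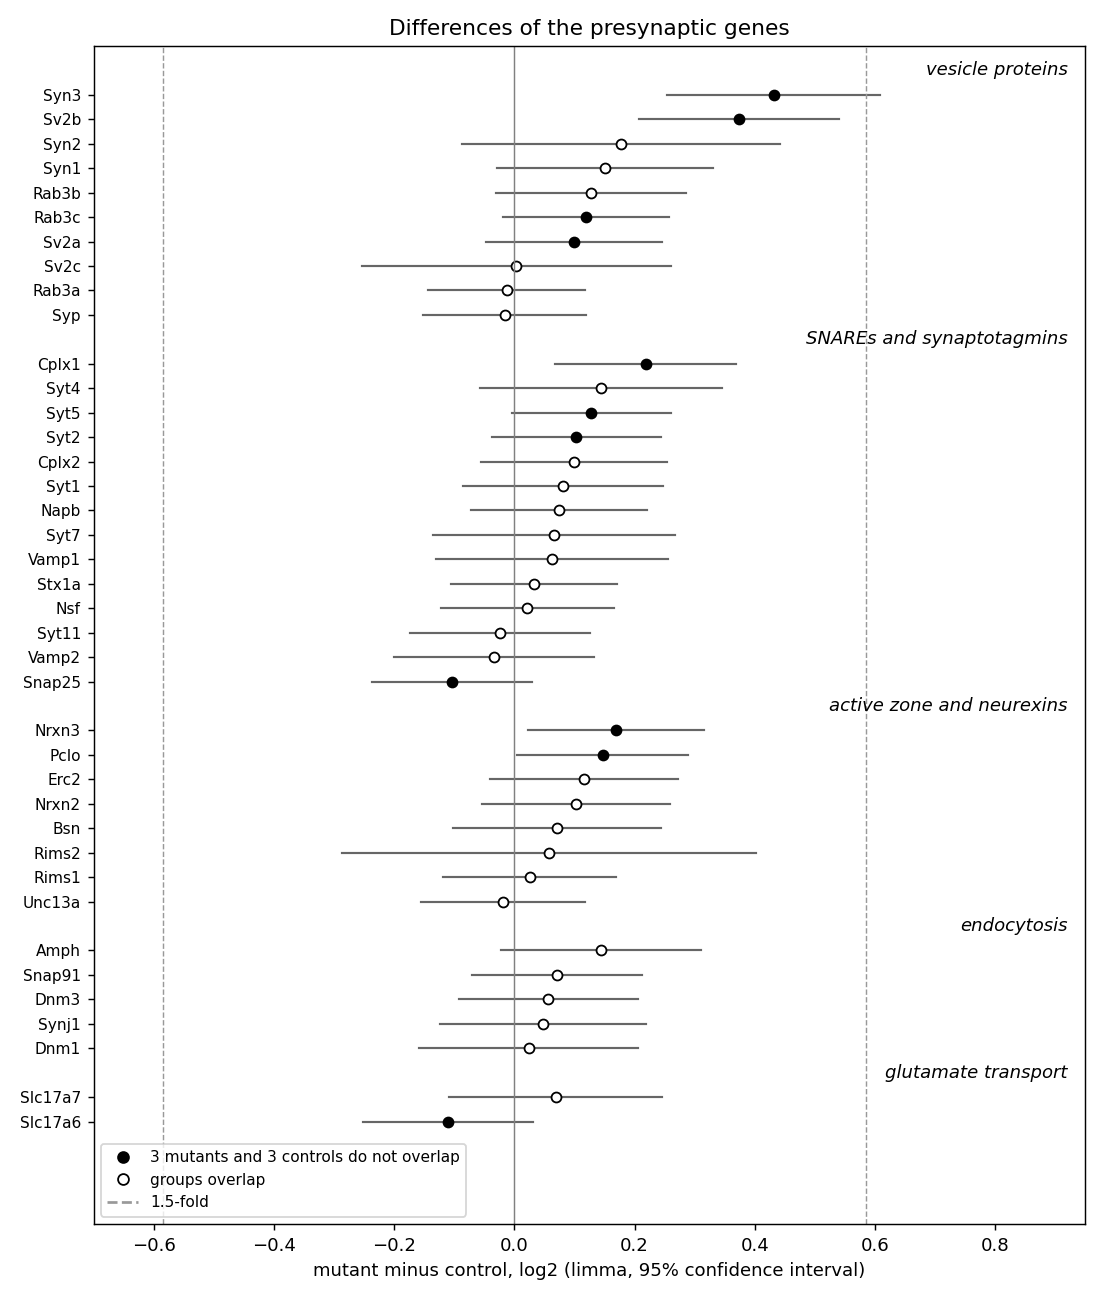
Difference between mutant and control means (horizontal axis, log2) for the 39 genes, sorted within each subgroup, with the 95% confidence interval of limma. Filled points are the 11 genes whose groups do not overlap, and no difference reaches the dashed lines at 1.5-fold.

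Among the vesicle proteins, *Syn3* and *Sv2b* had the largest differences of all 39 genes. *Syn3* encodes synapsin III, the synapsin expressed early in neuronal development. Its values were 11.05, 11.30 and 11.12 in mutants, against 10.68, 10.75 and 10.75 in controls, so that the lowest mutant lay well above the highest control. The means were 11.16 ± 0.13 in mutants and 10.73 ± 0.04 in controls (SD, n = 3 each), a difference of 0.43 (standard error 0.08, 95% confidence interval 0.25 to 0.61), which is 1.35-fold, with an adjusted p of 0.399. This difference lay between 0.34 and 0.49 under the 15 alternatives, and its adjusted p was 0.0231 with limma's trended, robust prior, where it passed the threshold, and 0.0832 to 0.641 under the others. *Sv2b*, a vesicle glycoprotein of the SV2 family, had 9.60, 9.74 and 9.68 in mutants, against 9.19, 9.33 and 9.38 in controls. Again all mutants were above all controls, with means of 9.67 ± 0.07 in mutants and 9.30 ± 0.10 in controls (SD, n = 3 each) and a difference of 0.37 (standard error 0.07, 95% confidence interval 0.21 to 0.54, 1.30-fold, adjusted p = 0.462).

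The relatives of these genes differed less. *Syn1* and *Syn2*, the synapsins of mature terminals, had differences of 0.15 (standard error 0.08) and 0.18 (standard error 0.11), with overlapping groups. For *Syn1* the values were 10.55, 10.77 and 10.64 in mutants, against 10.43, 10.48 and 10.59 in controls. For *Syn2* they were 10.10, 10.22 and 10.22 in mutants, against 9.74, 10.10 and 10.18 in controls, and the difference was 0.04 without the low control replicate 2. *Sv2a*, the most widely expressed SV2 protein, had 10.27, 10.32 and 10.29 in mutants, against 10.10, 10.24 and 10.24 in controls, without overlap but with a difference of 0.10 (standard error 0.06, adjusted p = 0.795), which was 0.05 without control replicate 2. Its groups overlapped when each array was centred on its median. *Sv2c*, which is known mainly from the basal ganglia, had a difference of 0.00, with controls spread from 7.76 to 8.20. Of the Rab3 GTPases, which associate with vesicles before fusion, *Rab3c* had 10.81, 10.93 and 10.85 in mutants, against 10.72, 10.75 and 10.77 in controls, again without overlap (difference 0.12, standard error 0.06, adjusted p = 0.726). With the mean of its 2 array rows the *Rab3c* difference was 0.03 and the groups overlapped. *Rab3b* had a difference of 0.13 with overlap, and *Rab3a* one of -0.01, with 11.71, 11.63 and 11.67 in mutants, against 11.70, 11.71 and 11.65 in controls. *Syp*, which encodes the vesicle membrane protein synaptophysin and is widely used as a marker of terminals, had a difference of -0.02 (95% confidence interval -0.15 to 0.12). Of the 10 vesicle genes, 8 had a higher mean in mutants and the median difference was 0.12, which was 0.08 without control replicate 2.

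**Figure D3:**
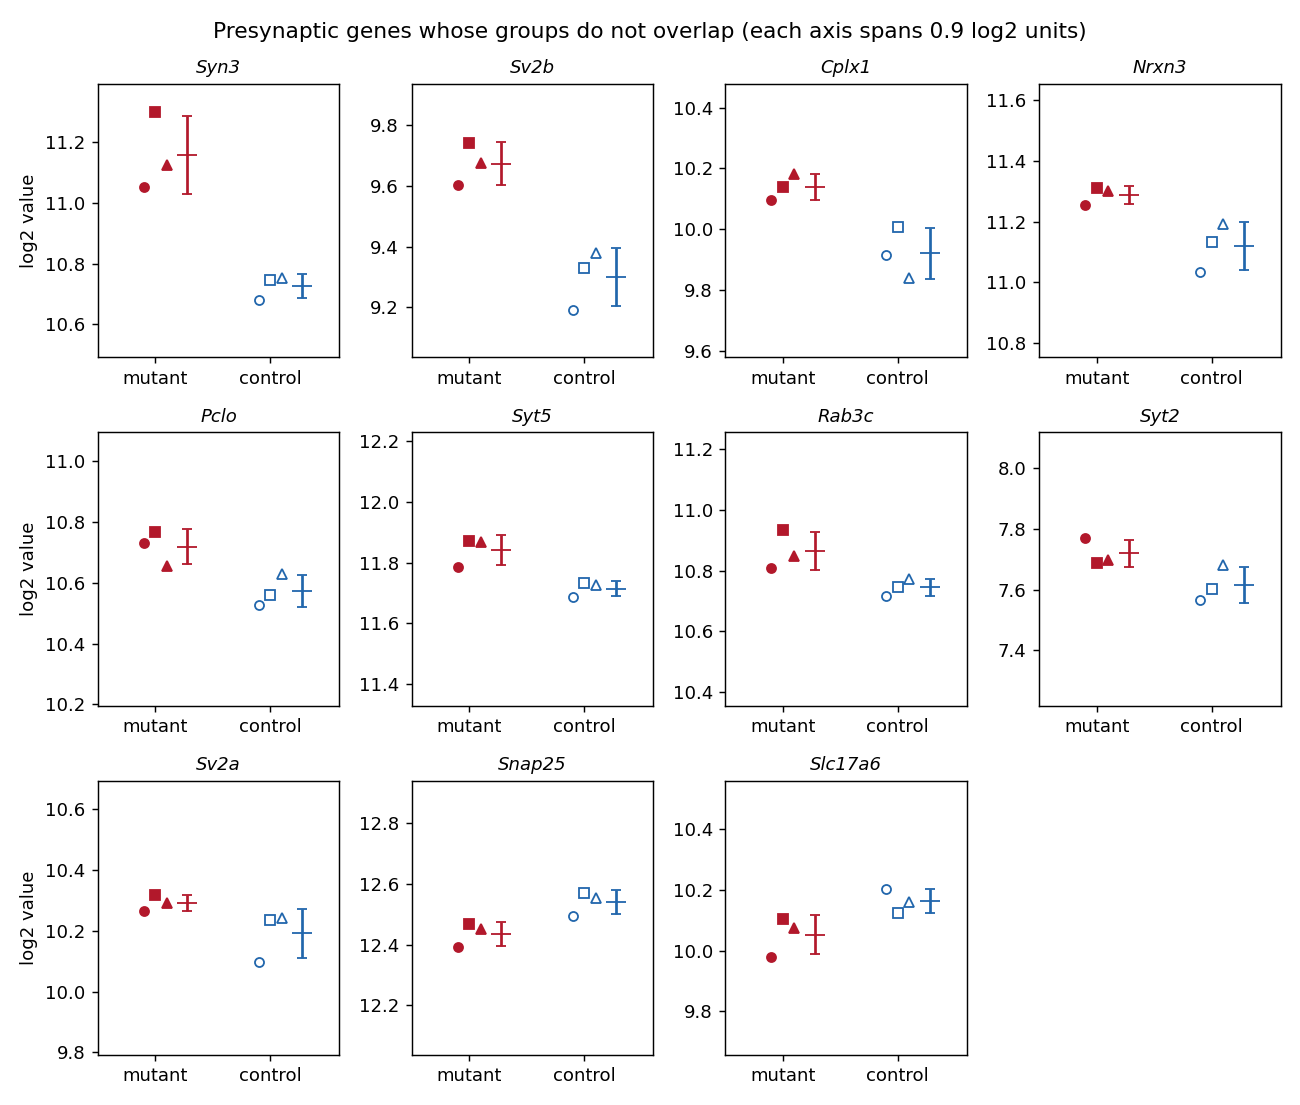
Log2 values of the 11 genes whose mutant and control arrays do not overlap, with mutants on the left of each panel, the mean and the SD (n = 3) beside the points, and symbols by replicate as in the plot of all genes by array. *Syn3* and *Sv2b* have the widest gaps, and *Snap25* and *Slc17a6* are the 2 genes with lower mutant values.

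In the fusion machinery the SNARE genes themselves had small differences, and *Cplx1* had the largest. *Cplx1* encodes complexin 1, which binds the assembled SNARE complex and both restrains and promotes fusion. Its values were 10.10, 10.14 and 10.18 in mutants, against 9.91, 10.01 and 9.84 in controls, a gap between groups with no overlap. The difference was 0.22 (standard error 0.07, 95% confidence interval 0.07 to 0.37, 1.16-fold, adjusted p = 0.535), and it lay between 0.18 and 0.26 under the 15 alternatives. *Cplx2*, its relative, had a difference of 0.10 with overlapping groups. *Snap25*, the SNARE of the plasma membrane that also serves as a general marker of neurons, went the other way, with 12.39, 12.47 and 12.45 in mutants, against 12.49, 12.57 and 12.55 in controls. All mutants lay below all controls, but by little (difference -0.10, standard error 0.06, 0.931-fold, adjusted p = 0.755). Its partners *Stx1a* (syntaxin 1A), *Vamp1* and *Vamp2* (synaptobrevins of the vesicle) had differences of 0.03, 0.06 and -0.03, and *Nsf* and *Napb*, which take used SNARE complexes apart, had 0.02 and 0.07, all with overlap.

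Of the 6 synaptotagmins, which bind membrane and in many cases calcium, 2 had mutant values above all controls. In the whole subgroup of 14 genes 3 did (21.4%), against 6.34% of all genes. *Syt5* had 11.79, 11.87 and 11.87 in mutants, against 11.69, 11.73 and 11.72 in controls (difference 0.13, standard error 0.06, 95% confidence interval -0.00 to 0.26, adjusted p = 0.707). *Syt2*, a fast calcium sensor, had 7.77, 7.69 and 7.70 in mutants, against 7.56, 7.60 and 7.68 in controls, values near the background guide, and the groups were 0.01 apart (difference 0.10, adjusted p = 0.777). *Syt1*, the main calcium sensor of forebrain neurons, had a difference of 0.08 and overlapped, as did *Syt4* (0.14), *Syt7* (0.07) and *Syt11* (-0.02). In all, 11 of the 14 genes of this subgroup had a higher mean in mutants, with a median difference of 0.07, which was 0.04 without control replicate 2 and 0.11 without control replicate 3.

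At the active zone, *Pclo* and *Nrxn3* were the genes without overlap, both with higher mutant values (25% of the 8 genes, against 6.34% of all genes). *Pclo* encodes the scaffold protein Piccolo and had 10.73, 10.77 and 10.66 in mutants, against 10.53, 10.56 and 10.63 in controls. The difference was 0.15 (standard error 0.06, adjusted p = 0.671). *Nrxn3* encodes neurexin 3, a presynaptic adhesion protein, and had 11.25, 11.31 and 11.30 in mutants, against 11.03, 11.13 and 11.19 in controls (difference 0.17, standard error 0.06, 95% confidence interval 0.02 to 0.31, adjusted p = 0.622). Neither gene stayed under an unadjusted p of 0.05 without control replicate 2, control replicate 3 or mutant replicate 6. *Nrxn3* was also above it without mutant replicate 7. *Pclo* was also above it without mutant replicate 5, with centring, with every cluster tested and with array weights. The other genes of this subgroup overlapped. The scaffold genes *Bsn* (Bassoon) and *Erc2* (an ELKS protein) had differences of 0.07 and 0.12, the priming factors *Rims1* and *Unc13a* (Munc13-1) 0.03 and -0.02, and *Nrxn2* 0.10. *Rims2* had the widest error of all 39 genes, with 9.13, 9.29 and 9.00 in mutants, against 8.81, 9.03 and 9.41 in controls (difference 0.06, standard error 0.15). Of the 8 genes, 7 had a higher mean in mutants, and the median difference of 0.09 was 0.05 without mutant replicate 6, 0.06 without control replicate 2 and 0.04 with the mean of a gene's rows.

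All 5 endocytosis genes had a higher mean in mutants, and in all 5 the groups overlapped. *Amph* (amphiphysin, which brings dynamin to the neck of the forming vesicle) had 10.91, 11.06 and 11.04 in mutants, against 10.76, 10.90 and 10.92 in controls (difference 0.14, standard error 0.07, adjusted p = 0.726). *Snap91* (AP180, a clathrin adaptor) had 11.59, 11.70 and 11.68 in mutants, against 11.53, 11.60 and 11.63 in controls, a difference of 0.07. *Dnm1*, the neuronal dynamin whose protein is a known substrate of GSK-3, had 10.09, 10.15 and 10.07 in mutants, against 9.93, 10.12 and 10.19 in controls. Its mutants lay inside the range of the controls, and the difference was 0.02 (95% confidence interval -0.16 to 0.21, adjusted p = 0.976). The array measures its RNA and not its phosphorylation. *Dnm3* and *Synj1* (synaptojanin 1) had differences of 0.06 and 0.05. The median of the 5 was 0.06, which was 0.02 without mutant replicate 6, 0.10 without mutant replicate 5 and 0.09 without control replicate 4.

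The 2 vesicular glutamate transporters differed in direction. *Slc17a6*, which encodes VGLUT2, had 9.98, 10.10 and 10.07 in mutants, against 10.20, 10.12 and 10.16 in controls. This was the lowest difference of the 39 genes (-0.11, standard error 0.06, 0.926-fold, adjusted p = 0.755), and the highest mutant lay 0.02 below the lowest control. *Slc17a7*, which encodes VGLUT1, had 9.27, 9.47 and 9.39 in mutants, against 9.27, 9.25 and 9.41 in controls, with overlap (difference 0.07, standard error 0.08). Whether the 2 transporters differ from each other in their response was not tested.

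A wider set of 107 further genes, called further presynaptic genes here, gave a smaller median difference. It was drawn broadly and is not confined to the presynaptic terminal. It holds the neuroligins *Nlgn1*, *Nlgn2* and *Nlgn3*. *Slc1a2*, *Slc1a3*, *Gad1* and *Gad2* in it also serve below as astrocyte or interneuron markers. Of the 107, 99 were measured, 69 with a higher and 30 with a lower mean in mutants. The median difference was 0.04, which was 0.02 without control replicate 2. None passed the adjusted threshold in limma, and at an unadjusted p under 0.05 there were 2 with a higher mean (2.02%, against 3.51% of all genes) and 3 with a lower mean (3.03%, against 3.81%). *Syt6*, a synaptotagmin, had a lower difference than any of the 39 genes, with 7.99, 7.92 and 8.11 in mutants, against 8.36, 8.52 and 8.41 in controls. Here all mutants lay below all controls (difference -0.43, standard error 0.07, adjusted p = 0.395). *Nlgn1*, a postsynaptic partner of neurexins listed with the adhesion proteins, had a difference of -0.16 (adjusted p = 0.605), and *Rab3d* one of -0.14 (adjusted p = 0.656). On the higher side, *Cacna1b*, the pore of the N-type calcium channel, had a difference of 0.15 (adjusted p = 0.674), *Atp6v0a1*, a subunit of the proton pump that energizes vesicle filling, 0.13 (adjusted p = 0.670), and *Syt9* 0.13 (adjusted p = 0.707). The groups did not overlap in 10 genes with higher mutant values (10.1%, against 6.34% of all genes) and in 5 with lower mutant values (5.05%, against 6.93%).

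**Figure D4:**
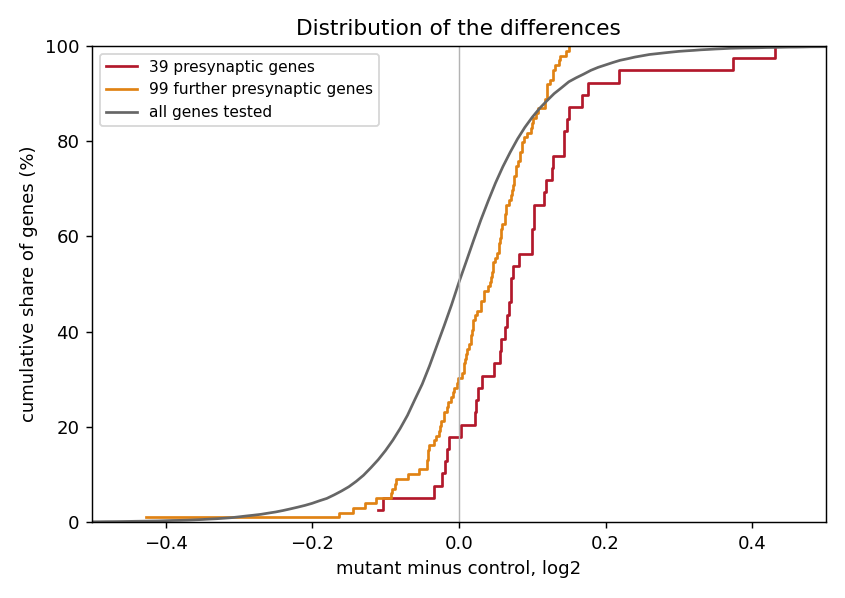
Cumulative share of genes (vertical axis, percent) by difference between mutant and control (horizontal axis, log2) for the 39 presynaptic genes, the 99 further presynaptic genes measured and all genes tested. The median differences are 0.07, 0.04 and -0.00.

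Markers of the cells in the tissue were read on the same arrays. All 10 pan-neuronal markers were measured, 8 with a higher mean in mutants, and their mean level was 11.13 to 11.22 on mutant arrays, against 10.99 to 11.12 on control arrays. Like the presynaptic genes, and not alone among the marker lists, they were lowest on control replicate 2 and highest on mutant replicate 6. *Nefl*, a neurofilament subunit named after its values were seen, had the largest difference of this list (0.44, adjusted p = 0.730), with 10.20, 10.34 and 10.06 in mutants, against 9.21, 9.86 and 10.21 in controls, and *Gap43*, a growth cone protein, had one of 0.20. Without *Nefl* the mean deviation of the list was -0.05 on control replicate 2, still the lowest of the 6 arrays, and 0.07 on mutant replicate 6, still the highest. The 9 progenitor markers ran the other way, with 7 lower means and a median difference of -0.20. In 5 every mutant array lay below every control array (55.6%, against 6.93% of all genes). The 9 markers had levels of 10.08 to 10.21 on mutant arrays, against 10.26 to 10.31 on control arrays. Among them *Top2a* and *Neurog2* had differences of -0.30 and -0.29 (adjusted p = 0.515 and 0.495). The 6 excitatory neuron markers measured, of 8 listed, had levels of 10.75 to 10.81 on mutant arrays, against 10.87 to 10.91 on control arrays, with 5 lower means and a median difference of -0.04. The gap between groups in this list came from *Neurod6*, whose locus carries the Cre driver (difference -0.60). Without it the other 5 markers lay at 10.65 to 10.70 on mutant arrays, against 10.68 to 10.71 on control arrays, with overlap. Of these 5, 4 had a lower mean in mutants, and the median difference was -0.03. The 1 with a higher mean was *Bcl11b*, named after its values were seen, with higher values on all mutants (difference 0.10, adjusted p = 0.777). The 10 astrocyte markers, 8 with a higher mean, lay at 9.07 to 9.16 on mutant arrays, against 8.96 to 9.10 on control arrays, with *Aqp4* and *Gjb6* at or below background. The 7 oligodendrocyte markers measured lay at 8.00 to 8.04 on mutant arrays, against 7.85 to 7.98 on control arrays, with *Sox10* and *Mog* at or below background. Interneuron markers (9 measured, 9.41 to 9.49 on mutant arrays, against 9.35 to 9.47 on control arrays) and thalamic markers (8 measured, 8.20 to 8.28 on mutant arrays, against 8.13 to 8.22 on control arrays, with *Tcf7l2* and *Slitrk6* at or below background) overlapped between groups. In mean deviation, control replicate 2 was lowest and mutant replicate 6 highest for oligodendrocyte (-0.12 and 0.07) and thalamic markers (-0.07 and 0.07) too. The same held for the 5 striatal markers measured (-0.04 and 0.08). Astrocyte and interneuron markers were lowest on control replicate 2 but highest on mutant replicate 7. Progenitor and excitatory neuron markers were highest on control replicate 2. The part of these cell types in the differences of the presynaptic genes was not tested.

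**Figure D5:**
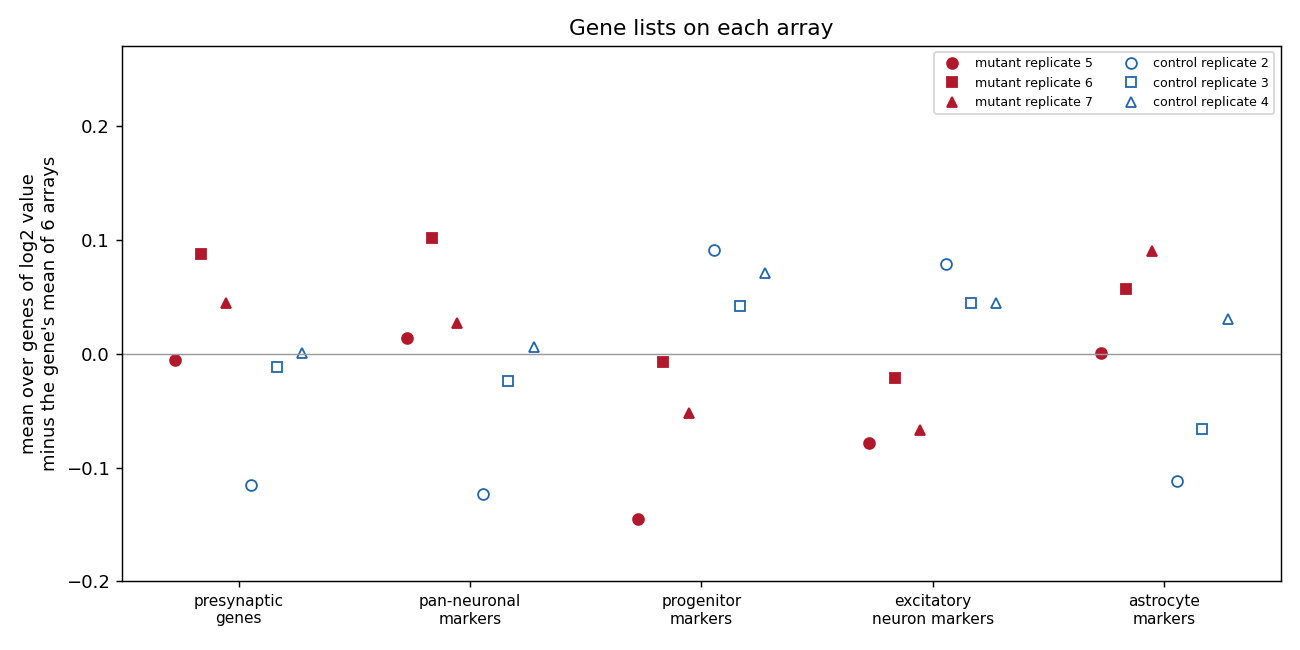
Mean over the genes of a list of the log2 value minus the gene's mean of 6 arrays (vertical axis), for the presynaptic genes and 4 marker lists, with mutants (filled red) left of controls (open blue). The presynaptic and the pan-neuronal list share the lowest array, control replicate 2 at -0.12 in both (-0.05 for the pan-neuronal list without *Nefl*), and the highest, mutant replicate 6 at 0.09 and 0.10. The oligodendrocyte, thalamic and striatal lists share both extremes, as given in the text.

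The labels were checked on *Gsk3b*, on *Neurod6* and on genes that mark sex. The row of *Gsk3b*, which covers the whole gene and not exon 2 alone, lay between 11.99 and 12.14 in mutants, against 11.99 and 12.03 in controls, and so does not check the deletion. *Neurod6*, whose locus carries the Cre driver, had 11.24, 11.32 and 11.21 in mutants, against 11.91, 11.81 and 11.84 in controls (difference -0.60, adjusted p = 0.0977), with all mutants below all controls. *Xist*, transcribed from the inactive X chromosome of females, was 11.89 on mutant replicate 6 and at most 6.18 on the other 5 arrays. The Y-linked genes *Eif2s3y*, *Kdm5d* and *Uty* were 6.22, 5.32 and 5.13 on mutant replicate 6. On the other 5 arrays they were at least 8.79. By these genes mutant replicate 6 read as female and the other 5 arrays, with all controls, as male. The part of sex in the high values of mutant replicate 6 was not tested. *Syn1* and *Syp* are X-linked. With the *Xist*-high array as a covariate, which equals leaving out mutant replicate 6, the differences of *Syn1* and *Syp* were 0.09 and -0.04.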

How the data were processed

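Each array gave 1 deposited log2 value per transcript cluster, made by the authors in Partek Genomics Suite (version 6.12.0712). For summarization and normalization of the probes, the method was not given in the sources used here. Lower quartiles lay between 6.17 and 6.24, and upper quartiles between 8.90 (mutant replicate 5) and 8.96 (mutant replicate 6). The upper quartiles thus spread about as far as the median difference of the 39 genes (0.07). Of genes above background, 35.0% were lowest on mutant replicate 5 and 31.1% highest on mutant replicate 6. The values were used as deposited, and with quantile normalization the median difference of the 39 genes was again 0.07. Of 41345 clusters, 23521 had a single symbol, giving 22180 genes. Pairs of arrays differed by a root mean square of 0.170 to 0.218 over genes, so none was a duplicate.

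Mutant minus control was tested with limma 3.58.1 in R 4.3.3 (lmFit, eBayes, two-sided), with Benjamini-Hochberg adjustment over all 22180 genes and no covariate. The test was checked on data simulated without litter effects or shifts of whole arrays, so the check does not cover these. The p-values measure spread between embryos, littermates being treated as independent. The smallest two-sided p of an exact permutation test of 3 against 3 is 0.1, which is the value of each gene without overlap.

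The 39 genes, the other lists and their roles were chosen with earlier results of these data known. Per-array values are given for genes under an unadjusted p of 0.05 or without overlap, and for *Dnm1* and *Slc17a7*. They are also given for the smallest p and the brightest gene of each subgroup. A few others (*Syn1*, *Syn2*, *Rims2*) were added after their values were seen. Of the further presynaptic genes, up to 3 of smallest p in each direction are named. Alternatives were quantile normalization, centring, a filter on dim genes, the mean of a gene's clusters, every cluster, limma's trended, robust prior, array weights, *Xist* as a covariate, and leaving out arrays.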

Additional observations from a re-analysis of the deposited data

How the results depend on the processing

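The 3 arrays a group limit the precision, and which of the 2 litters each embryo came from is not known. Over 15 alternatives, of which leaving out control replicate 2 and mutant replicate 6 together was added after the values were seen, 24 of the 39 genes kept the sign of their difference and 15 did not in at least 1. The cause of the changes was not tested, except that groups of 2 arrays overlap less by construction. No paired analysis was possible because mutants and controls share no replicate number.

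The number of genes called among all was 1, and became 4 without dim genes, 3 with every cluster tested and 27 with limma's trended, robust prior, which called 1 presynaptic gene (*Syn3*) in place of 0. The 5 genes with higher means at an unadjusted p under 0.05 became 9 with that prior (3.99% of all genes there), 3 with *Xist* as a covariate (3.34%) and 2 (without both arrays, 4.14%) to 7 (without mutant replicate 5, 3.58%) with arrays left out. The 0 with lower means became 1 (*Snap25*) with quantile normalization, against 1088 of all 22180 genes there. With that prior the number was also 1, against 922 of all 22180 genes. The 9 genes above all controls became 14 with quantile normalization (7.12% of all genes there) and 9 to 19 with arrays left out (19 without mutant replicate 5, against 13.4% of all genes). The 2 below all controls became 2 to 4 (4 without both arrays, *Vamp2* and *Dnm1* being added, against 22.8% of all genes).

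With arrays left out, the median difference ranged from 0.021 (without both arrays) to 0.115 for all 39 genes, from 0.048 (without both arrays) to 0.140 for vesicle genes, from 0.023 (without both) to 0.107 for the SNARE subgroup, from 0.00995 (without both) to 0.0965 for endocytosis, from 0.015 (without both) to 0.129 for active zone genes, from -0.0576 to 0.024 for transport (positive without mutant replicate 5 or control replicate 4) and from -0.0007 (without both) to 0.051 for the further presynaptic genes.

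The difference of these single genes changed sign with arrays left out. It turned without control replicate 2, alone or with mutant replicate 6, in *Sv2c* (-0.0911 to 0.126), *Nsf* (-0.0345 to 0.0491), *Syt7* (-0.0414 to 0.130), *Rims1* (-0.0209 to 0.0653), *Rims2* (-0.153 to 0.222), *Dnm1* (-0.0761 to 0.0779) and *Synj1* (-0.0293 to 0.0965), and without both arrays together in *Syt1* (-0.0088 to 0.118) and *Bsn* (-0.0107 to 0.122). *Sv2c* also turned without mutant replicate 7 and without control replicate 4, and *Rims2* and *Dnm1* also without mutant replicate 6. It turned without control replicate 4 in *Vamp2* (-0.114 to 0.0127, also without mutant replicate 7), *Syt11* (-0.0707 to 0.0190) and *Unc13a* (-0.0406 to 0.0179), without mutant replicate 5 in *Syp* (-0.0384 to 0.0179), and without mutant replicate 6 in *Rab3a* (-0.0315 to 0.0145). With *Xist* as a covariate it was 0.00662 for *Rab3a*, -0.0172 for *Rims2* and -0.00038 for *Dnm1*. *Sv2c* had -0.00263 with quantile normalization and -0.00565 with centring, *Nrxn2* had -0.0117 with the mean of its clusters, and array weights gave -0.0576 for *Rims2* and -0.00948 for *Dnm1*.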

Other observations

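Some presynaptic genes had a second, dimmer row on the array that was not used above. For *Nrxn2* it gave a difference of -0.13, against 0.10 for the row used, and for *Rab3c* -0.06, against 0.12. For *Dnm3* the 2 rows gave 0.07 (second) and 0.06 (used), and the dimmer rows of *Bsn* (-0.02), *Syp* (-0.04) and *Syt4* (-0.02 and -0.05) all overlapped between groups. Rows that name a presynaptic gene together with another gene were not used, and gave -0.02 for *Rab3b* and -0.05 for *Vamp1*.

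Each synapsin gene holds a *Timp* gene, an inhibitor of metalloproteinases, within its borders in the gene table of GRCm38.p6. These were looked up after the values of the synapsins were seen. *Timp3*, inside *Syn3*, had 8.93, 8.68 and 8.99 in mutants, against 8.92, 9.17 and 9.06 in controls, a difference of -0.18 (adjusted p = 0.755) beside 0.43 for *Syn3*. *Timp4*, inside *Syn2*, had a difference of 0.22 (adjusted p = 0.605) and *Timp1*, inside *Syn1*, one of -0.18 (adjusted p = 0.842), both with means below the background guide.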
